A study of Homo sapiens with 4 samples.

Results

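LTR3 and LTR22 are 2 families of long terminal repeats (LTRs), the sequences that bound an endogenous retrovirus on both sides, and both belong to HERV-K type (betaretrovirus-like) elements. LTR3 flanks the HML-6 group and LTR22 the HML-5 group. The members were taken by name: the subfamilies LTR3, LTR3A, LTR3B and LTR3B_ of the first family and LTR22, LTR22A, LTR22B and LTR22C of the second, 8 of the 373 LTR subfamilies listed. HCT116, an established human colorectal carcinoma cell line, was given 300 nM 5-aza-CdR (decitabine) or PBS as its control for 24 h and collected at day 5. H3K9me2 and H3K9me3 were measured by native ChIP-seq, which uses uncrosslinked single nucleosomes, with 1 library for each mark in 5-aza-CdR and 1 in PBS. Every value therefore describes a single library, no treatment difference has a replicate check, and the sequencing depth behind the values is unknown. The values are the z-scores that the authors deposited for each subfamily, a relative scale for which the sources used here name neither zero nor unit.

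An LTR carries the promoter, enhancer and polyadenylation signals of its provirus, and most copies in the human genome are solitary LTRs left after recombination between both ends. Silencing of LTRs in somatic cells is shared between DNA methylation and histone H3 lysine 9 methylation. H3K9me2 is laid down mainly by the G9a and GLP enzymes over broad domains. H3K9me3 is deposited at many retroviral repeats by SETDB1, which KRAB zinc finger proteins recruit through TRIM28. 5-aza-CdR is incorporated into DNA, traps DNA methyltransferases and so lowers DNA methylation as cells divide. HML-5 and HML-6 are old, replication-defective members of the HERV-K type.

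All 8 subfamilies were more CpG-rich than the median LTR, and most had low z-scores for both marks. In 5-aza-CdR 7 of 8 lay below the median LTR for H3K9me2 and for H3K9me3, with LTR3B_ above it for both, while LTR22 was among the lowest LTRs listed. In PBS 7 of 8 lay below it for H3K9me2, with LTR22A just above, and 8 of 8 for H3K9me3. The deposited z-score of each of the 8 members was higher in the 5-aza-CdR library than in the PBS library for both marks. So was that of 372 of 373 subfamilies for H3K9me2 and of 373 of 373 for H3K9me3. A higher z-score in 5-aza-CdR was thus no property of these members, and their differences are read below against the median of all 373.

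CpG density, which the table gives as a ratio with no stated denominator, placed the 8 members between the places 24 and 88 of the 373 subfamilies counted from the most CpG-rich. LTR3A was the richest, with a density of 0.0166, followed by LTR3B_ with 0.0152, LTR22 with 0.0137 and LTR22C with 0.0134. LTR3B (0.0125), LTR22A (0.0122), LTR3 (0.0118) and LTR22B (0.0106) came after them. The family medians were 0.0138 for LTR3 and 0.0128 for LTR22, against 0.00734 over all subfamilies, and the ranges of the families overlapped.

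Within LTR3, the subfamily LTR3 had H3K9me2 z-scores of -0.0399 in 5-aza-CdR and -0.736 in PBS, and H3K9me3 z-scores of 0.320 in 5-aza-CdR and -0.569 in PBS. LTR3A had H3K9me2 z-scores of -0.0776 in 5-aza-CdR and -0.782 in PBS, and H3K9me3 z-scores of 0.213 in 5-aza-CdR and -0.572 in PBS. These subfamilies were close to each other in all 4 libraries and lay below the median LTR in each. LTR3B had H3K9me2 z-scores of -0.249 in 5-aza-CdR and -0.817 in PBS, the lowest of the 8 members in PBS, and H3K9me3 z-scores of 0.185 in 5-aza-CdR and -0.542 in PBS. LTR3B_ had H3K9me2 z-scores of 0.539 in 5-aza-CdR and -0.480 in PBS, and H3K9me3 z-scores of 0.671 in 5-aza-CdR and -0.509 in PBS. LTR3B_ was the highest of its family in all 4 libraries, and in 5-aza-CdR it was the highest of the 8 members for both marks.

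Within LTR22, the subfamily LTR22 had H3K9me2 z-scores of -0.401 in 5-aza-CdR and -0.766 in PBS, and H3K9me3 z-scores of -0.103 in 5-aza-CdR and -0.558 in PBS. It was the lowest of its family in all 4 libraries and the only one of the 8 members whose H3K9me3 z-score was below 0 in 5-aza-CdR. LTR22B had H3K9me2 z-scores of -0.191 in 5-aza-CdR and -0.728 in PBS, and H3K9me3 z-scores of 0.0574 in 5-aza-CdR and -0.546 in PBS. LTR22C had H3K9me2 z-scores of 0.0395 in 5-aza-CdR and -0.561 in PBS, and H3K9me3 z-scores of 0.333 in 5-aza-CdR and -0.541 in PBS. LTR22A had H3K9me2 z-scores of 0.181 in 5-aza-CdR and -0.397 in PBS, and H3K9me3 z-scores of 0.417 in 5-aza-CdR and -0.512 in PBS. The order was the same in all 4 libraries, with LTR22A highest, then LTR22C, LTR22B and LTR22. The gap between LTR22C and LTR22B for H3K9me3 in PBS was only 0.00458, or 0.18 robust SDs of all subfamilies. A robust SD is the scaled median absolute deviation over the 373 subfamilies.

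**Figure D1:**
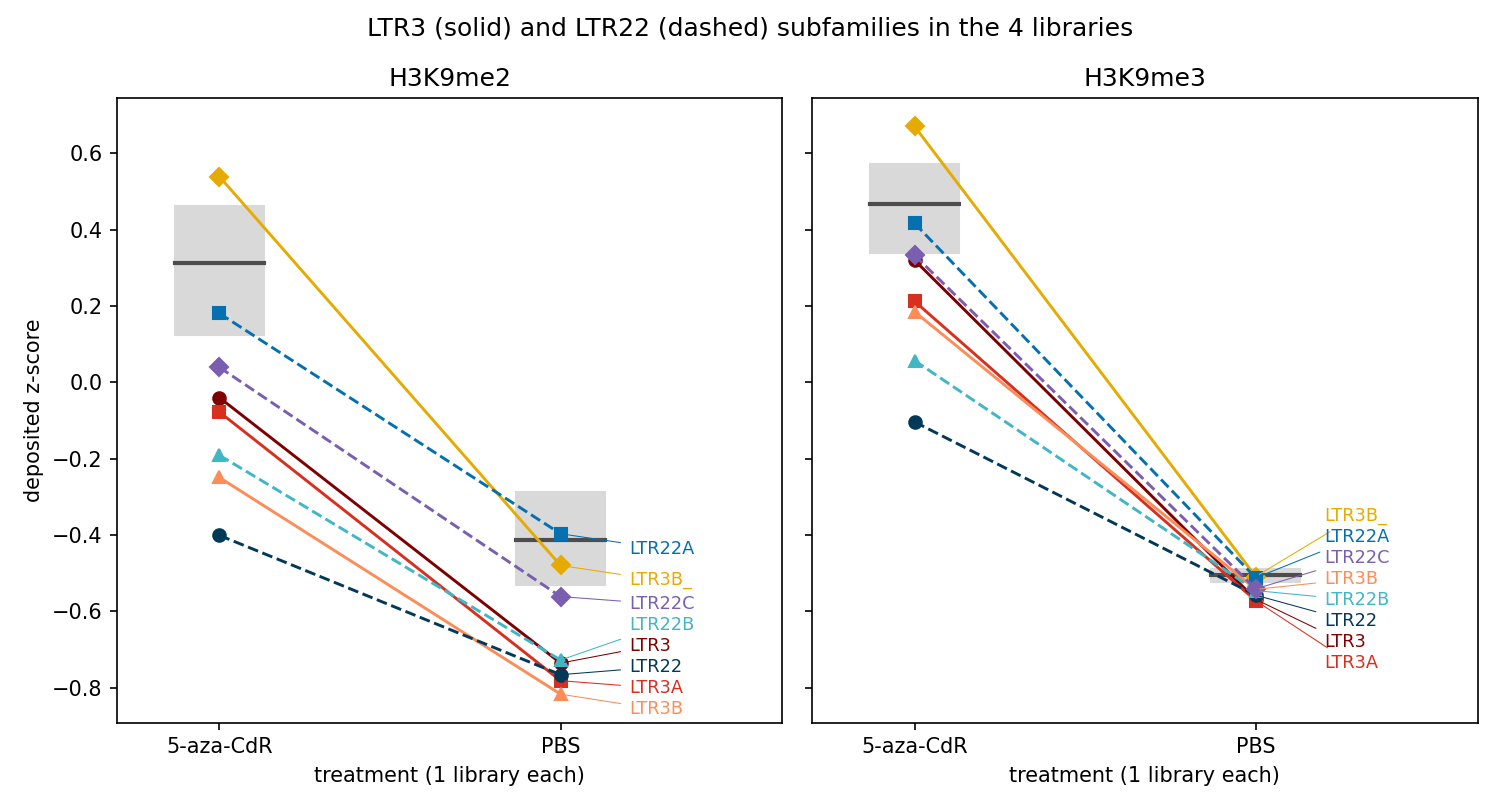
Deposited z-score (vertical axis) of the 8 subfamilies in the 5-aza-CdR and PBS libraries of each mark (horizontal axis), with LTR3 solid, LTR22 dashed, and the grey box and bar giving the interquartile range and median of all 373 subfamilies. LTR3B_ lies above the box in 5-aza-CdR for both marks, LTR22 is lowest in 5-aza-CdR for both, and the H3K9me3 values in PBS are packed between -0.572 and -0.509.

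Across both families the H3K9me2 order in PBS ran from LTR22A through LTR3B_ and LTR22C to a close set of 5, namely LTR22B, LTR3, LTR22, LTR3A and LTR3B. This set spanned 0.0895 in z-score, or 0.49 robust SDs. LTR22A was 0.0831 above LTR3B_ in PBS. In 5-aza-CdR the order of these 2 was turned, with LTR3B_ at 0.539 and LTR22A at 0.181. With 1 library per group, the error of such gaps is not known.

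The place of each member within its own library does not depend on the zero and unit of the z-score. It was measured as a percentile, the share of the other subfamilies with a lower value. For H3K9me2, LTR3B_ was at percentile 86.0 in 5-aza-CdR and 36.6 in PBS, and LTR3 was at 15.3 in 5-aza-CdR and 5.38 in PBS. LTR3A was at 12.4 in 5-aza-CdR and 3.76 in PBS, and LTR3B at 4.03 in 5-aza-CdR and 2.42 in PBS. All 4 LTR3 subfamilies thus held a higher H3K9me2 place in the 5-aza-CdR library, by 1.61 percentile points at LTR3B and by 49.5 at LTR3B_. Members near the lowest place in PBS had little room to fall. The share of all subfamilies with a higher place in 5-aza-CdR was not counted, so this count has no background to be read against. The LTR22 family was mixed. LTR22A was at percentile 31.7 in 5-aza-CdR and 52.7 in PBS, and LTR22 at 2.15 in 5-aza-CdR and 4.30 in PBS. LTR22B and LTR22C differed by less than 1 percentile point between treatments (6.72 in 5-aza-CdR and 6.18 in PBS for LTR22B, 21.8 in 5-aza-CdR and 21.0 in PBS for LTR22C).

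For H3K9me3, 3 of 4 LTR3 subfamilies and 1 of 4 LTR22 subfamilies held a higher place in 5-aza-CdR. The share over all subfamilies was not counted for this mark either, so these counts have no background to be read against. Here too, members near the lowest place in PBS had little room to fall. LTR3B_ was at percentile 90.6 in 5-aza-CdR and 43.8 in PBS, LTR3 at 21.8 in 5-aza-CdR and 3.76 in PBS, and LTR3A at 13.4 in 5-aza-CdR and 2.96 in PBS. LTR3B went the other way, with 9.14 in 5-aza-CdR and 12.1 in PBS. In the LTR22 family, LTR22C was at 23.7 in 5-aza-CdR and 14.0 in PBS. The other 3 members were lower in 5-aza-CdR: LTR22A was at 36.8 in 5-aza-CdR and 38.4 in PBS, LTR22B at 3.23 in 5-aza-CdR and 9.95 in PBS, and LTR22 at 1.08 in 5-aza-CdR and 4.84 in PBS.

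**Figure D2:**
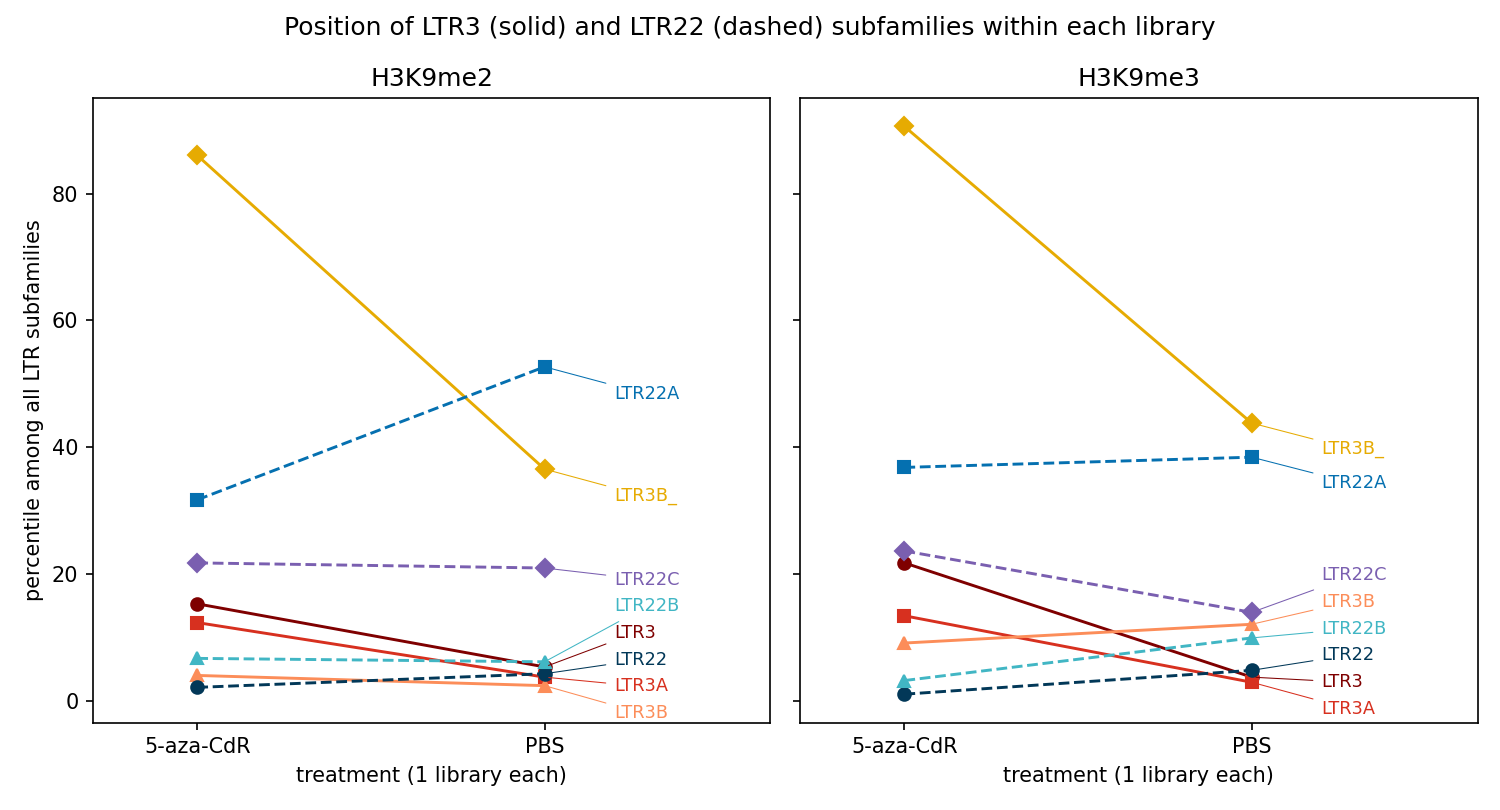
Percentile of each of the 8 subfamilies among all 373 LTR subfamilies (vertical axis) in the 5-aza-CdR and PBS libraries of each mark (horizontal axis), LTR3 solid and LTR22 dashed. LTR3B_ stands at 86.0 in 5-aza-CdR against 36.6 in PBS for H3K9me2 and at 90.6 against 43.8 for H3K9me3, while LTR22A stands at 31.7 against 52.7 for H3K9me2.

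The main comparison set 5-aza-CdR against PBS. For H3K9me2 the difference, 5-aza-CdR minus PBS, was 1.02 at LTR3B_, 0.704 at LTR3A, 0.696 at LTR3 and 0.568 at LTR3B. In the LTR22 family it was 0.601 at LTR22C, 0.578 at LTR22A, 0.537 at LTR22B and 0.365 at LTR22. The median over all subfamilies was 0.702. LTR3 and LTR3A were close to it on the deposited scale (-0.05 and 0.02 robust SDs), but above it with SD 1 in each library (1.59 and 1.86) and on ranks (0.94 and 0.83). LTR3B and the 4 LTR22 subfamilies were below it on the deposited scale, but LTR3B, LTR22B and LTR22C were above it on both of those scales.

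Differences farther than 2 robust SDs from the median of all subfamilies, here below 0.452 or above 0.952, were counted as beyond the limit. For H3K9me2, 1 of 4 LTR3 subfamilies, LTR3B_, was above the limit (2.54 robust SDs), against 2.95% of all subfamilies. Of the 4 LTR22 subfamilies, 1, LTR22, was below it (-2.70 robust SDs), against 8.04% of all subfamilies. LTR3B_ held the place 5 of 373 from the highest difference and LTR22 the place 12 from the lowest. LTR3B_ was also above the limit with SD 1 in each library (3.07 robust SDs, against 8.04% of all subfamilies above it on that scale) and on ranks (4.25, against 7.77%). LTR22 was not below the lower limit with SD 1, at -0.97 robust SDs. Ranks (-0.07) could not decide this, since LTR22 was at percentile 4.30 in PBS and had little room to fall.

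For H3K9me3 the difference was 1.18 at LTR3B_, 0.889 at LTR3, 0.785 at LTR3A and 0.728 at LTR3B, and 0.929 at LTR22A, 0.874 at LTR22C, 0.603 at LTR22B and 0.454 at LTR22. The median over all subfamilies was 0.973, and 7 of the 8 members were below it on the deposited scale. With SD 1 and on ranks, LTR3, LTR3A and LTR22C were above it. The limits were 0.687 and 1.26. None of the 8 members was above them, against 1.88% of all subfamilies, and LTR3B_ came nearest to the upper one at 1.45 robust SDs. With SD 1 it was at 1.67 and not above the limit, and on ranks it was above it at 2.44, as were 7.24% of all subfamilies. Both LTR22 (-3.63) and LTR22B (-2.59), 2 of 4 in their family, were below them, against 7.24% of all subfamilies. With SD 1 in each library neither was beyond the limit (-1.90 for LTR22 and -1.23 for LTR22B). Ranks (-0.15 and -0.30) could not decide this. LTR22 was at percentile 4.84 in PBS and LTR22B at 9.95, so both had little room to fall. For these low-lying subfamilies the call thus held on the deposited scale but not with SD 1. On the deposited scale the H3K9me3 spread over all subfamilies was 5.81 times as wide in 5-aza-CdR as in PBS (1.55 times for H3K9me2).

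**Figure D3:**
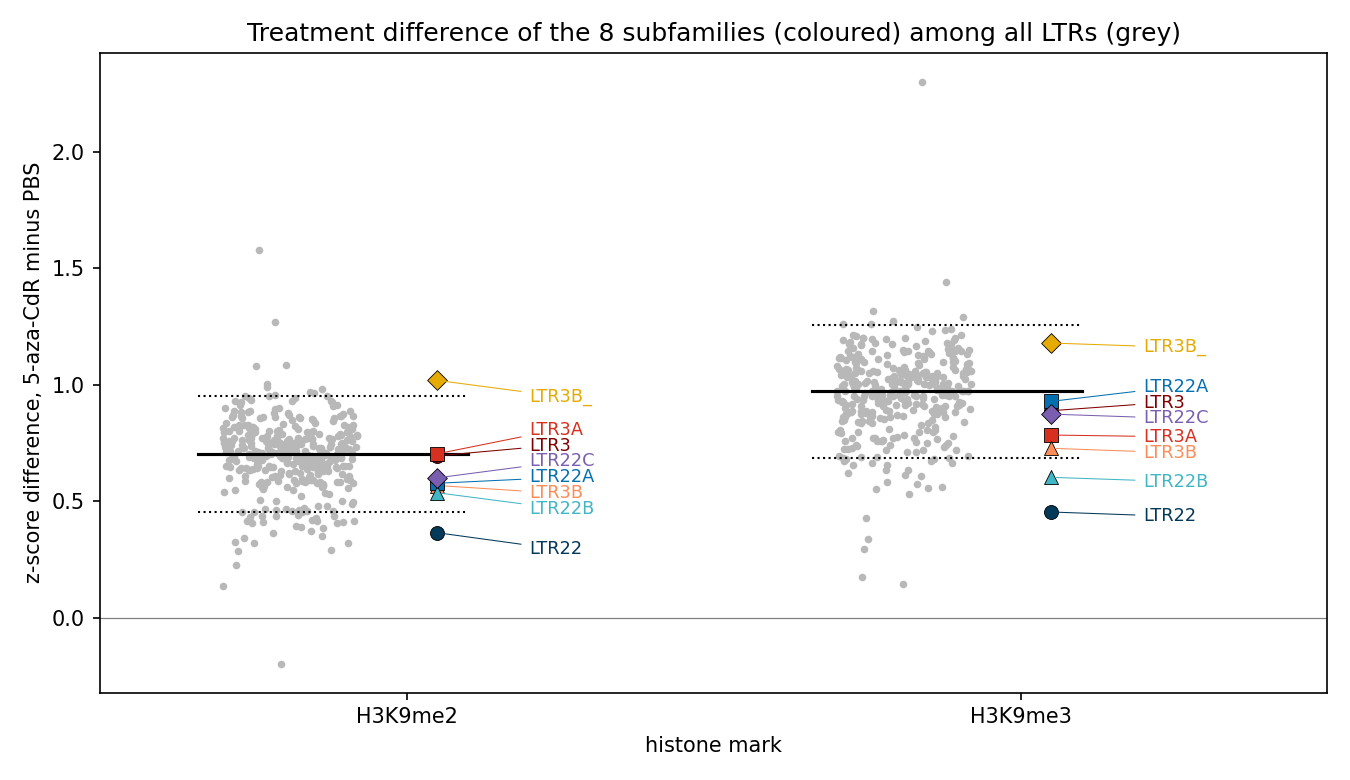
Difference in z-score between the 5-aza-CdR and PBS libraries (vertical axis) for each mark (horizontal axis), with the 8 subfamilies coloured and the others in grey, spread sideways for display. The black line is the median of all 373 (0.702 for H3K9me2 and 0.973 for H3K9me3) and the dotted lines are the limits of 2 robust SDs. LTR3B_ is above the H3K9me2 limit, LTR22 is below both lower limits, and LTR22B is below that of H3K9me3.

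The LTR3 family was then set against the LTR22 family, by the medians of their 4 members each. Members of a family share descent and are not replicates, so the families are described with no test. In 5-aza-CdR the H3K9me2 medians were -0.0588 for LTR3 and -0.0757 for LTR22, a gap of 0.0169, or 0.07 robust SDs. That gap changed sign on ranks and without LTR3, LTR3B_, LTR22 or LTR22B. In PBS the H3K9me2 medians were -0.759 for LTR3 and -0.644 for LTR22, a gap of -0.114, or -0.63 robust SDs. The H3K9me3 medians were 0.267 for LTR3 and 0.195 for LTR22 in 5-aza-CdR, and -0.555 for LTR3 and -0.543 for LTR22 in PBS. LTR3 was thus at or above LTR22 in 5-aza-CdR and below it in PBS, by amounts smaller than the range within either family, and the ranges of the families overlapped in all 4 libraries. For H3K9me3 the sign of the gap also turned, in 5-aza-CdR without LTR22 or LTR22B and in PBS without LTR3 or LTR3A.

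The median H3K9me2 treatment difference was 0.700 for LTR3 (range 0.568 to 1.02) and 0.557 for LTR22 (range 0.365 to 0.601), a gap of 0.143, or 1.14 robust SDs. LTR3 members had the larger difference in 14 of the 16 pairs of one LTR3 and one LTR22 subfamily. The exceptions were LTR3B against LTR22A and LTR3B against LTR22C. The gap was positive under each alternative tried, from 0.84 robust SDs on ranks to 2.16 with SD 1. For H3K9me3 the median difference was 0.837 for LTR3 (0.728 to 1.18) and 0.739 for LTR22 (0.454 to 0.929), a gap of 0.0982, or 0.69 robust SDs, with LTR3 higher in 11 of 16 pairs. That H3K9me3 gap became -0.26 robust SDs when LTR22 or LTR22B was left out, so its direction rested on those low members. The LTR3 median lay at -0.02 robust SDs from that of all subfamilies for H3K9me2 and at -0.95 for H3K9me3 as deposited, but above it with SD 1 (1.72 for H3K9me2 and 1.33 for H3K9me3) and on ranks (0.89 for H3K9me2 and 0.77 for H3K9me3). The LTR22 median lay at -1.16 for H3K9me2 and -1.64 for H3K9me3 as deposited, nearer to that of all subfamilies with SD 1 (-0.44 for H3K9me2 and -0.63 for H3K9me3) and close to it on ranks (0.045 for H3K9me2 and -0.10 for H3K9me3). Without LTR22 or LTR22B it was -0.69 for H3K9me3, and without LTR22A or LTR22C -2.59.

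LTR3B_ and LTR3B carry nearly the same name but lay at opposite ends of their family, except for H3K9me3 in PBS. There LTR3B came next after LTR3B_, above LTR3 and LTR3A. LTR3B_ was above LTR3B by 0.789 in 5-aza-CdR and 0.337 in PBS for H3K9me2, which is 3.15 and 1.86 robust SDs of those libraries. For H3K9me3 LTR3B_ was above by 0.486 in 5-aza-CdR and 0.0337 in PBS, or 2.83 and 1.33 robust SDs. Within LTR22 the widest pair was LTR22A and LTR22. LTR22A was above LTR22 by 0.582 in 5-aza-CdR and 0.369 in PBS for H3K9me2, and by 0.520 in 5-aza-CdR and 0.0454 in PBS for H3K9me3. These pairs were singled out after their values were seen. Copy number, length and read mappability of the subfamilies are not part of the values used here, and their part in these contrasts was not tested.

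CpG density could be set beside these contrasts, since CpG-rich LTRs had the lower z-scores over the whole table. The 125 most CpG-rich subfamilies had a median H3K9me2 z-score of -0.00688 in 5-aza-CdR and -0.572 in PBS, against 0.312 in 5-aza-CdR and -0.412 in PBS over all subfamilies. A straight line of each library's z-score on the rank of CpG density was fitted over all 373 subfamilies, and the residuals were expressed in robust SDs. LTR3B_ was 3.31 above the line for H3K9me2 and 3.23 above it for H3K9me3 in 5-aza-CdR, at percentiles 99.7 and 99.5 of all residuals, against 1.08 and 1.33 above the corresponding lines in PBS. LTR3B_ is more CpG-rich than LTR3B, which was at -1.59 for H3K9me2 and -0.89 for H3K9me3 in 5-aza-CdR and at -2.40 and -0.77 in PBS. LTR22 was at -2.29 for H3K9me2 and -3.01 for H3K9me3 in 5-aza-CdR, and at -1.76 and -1.46 in PBS. LTR22B, the least CpG-rich of the 8, was also below the line in 5-aza-CdR, at -1.51 for H3K9me2 and -2.10 for H3K9me3, and in PBS, at -1.83 and -1.14. LTR3A, the richest of the 8, was near the line in 5-aza-CdR (-0.12 for H3K9me2 and -0.27 for H3K9me3) and below it in PBS (-1.60 and -1.99). The part of CpG density in these values was not tested. LTR22 was the richest of its family and the lowest of it in both marks. LTR3B_ was richer than LTR22 but the highest of the 8 members in 5-aza-CdR for both marks. LTR22B was less CpG-rich than LTR22A and LTR22C but lay below them in each library.

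The treatment differences had the same members at the ends once CpG density was taken into account, which is no separate check. Before scaling, the residual of a difference is the 5-aza-CdR residual minus the PBS residual. For H3K9me3, whose values varied little in PBS, it mostly repeats the 5-aza-CdR residual. The H3K9me2 difference of LTR3B_ was 3.66 robust SDs above the line and its H3K9me3 difference 3.41 above. The lowest members were LTR22, at -1.67 for H3K9me2 and -3.11 for H3K9me3, and LTR22B, at -0.53 for H3K9me2 and -2.15 for H3K9me3. LTR3 was at 0.82 for H3K9me2 and 0.49 for H3K9me3, LTR3A at 1.21 and 0.04, and LTR3B at -0.15 and -0.85. LTR22A was at -0.09 for H3K9me2 and 0.89 for H3K9me3, and LTR22C at 0.19 and 0.55. With the line on CpG density itself instead of its rank, some of these signs turned. LTR3 (-0.25), LTR3A (-0.54) and LTR22C (-0.19) were then below it for H3K9me3, and LTR22C (-0.31) also for H3K9me2. LTR3B_ was at 3.73 for H3K9me2 and 2.39 for H3K9me3 with that line. Among the 125 subfamilies with the highest CpG density, 123 had a smaller H3K9me2 difference than LTR3B_ and 10 a smaller one than LTR22. For H3K9me3 the same counts were 120 and 4.

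**Figure D4:**
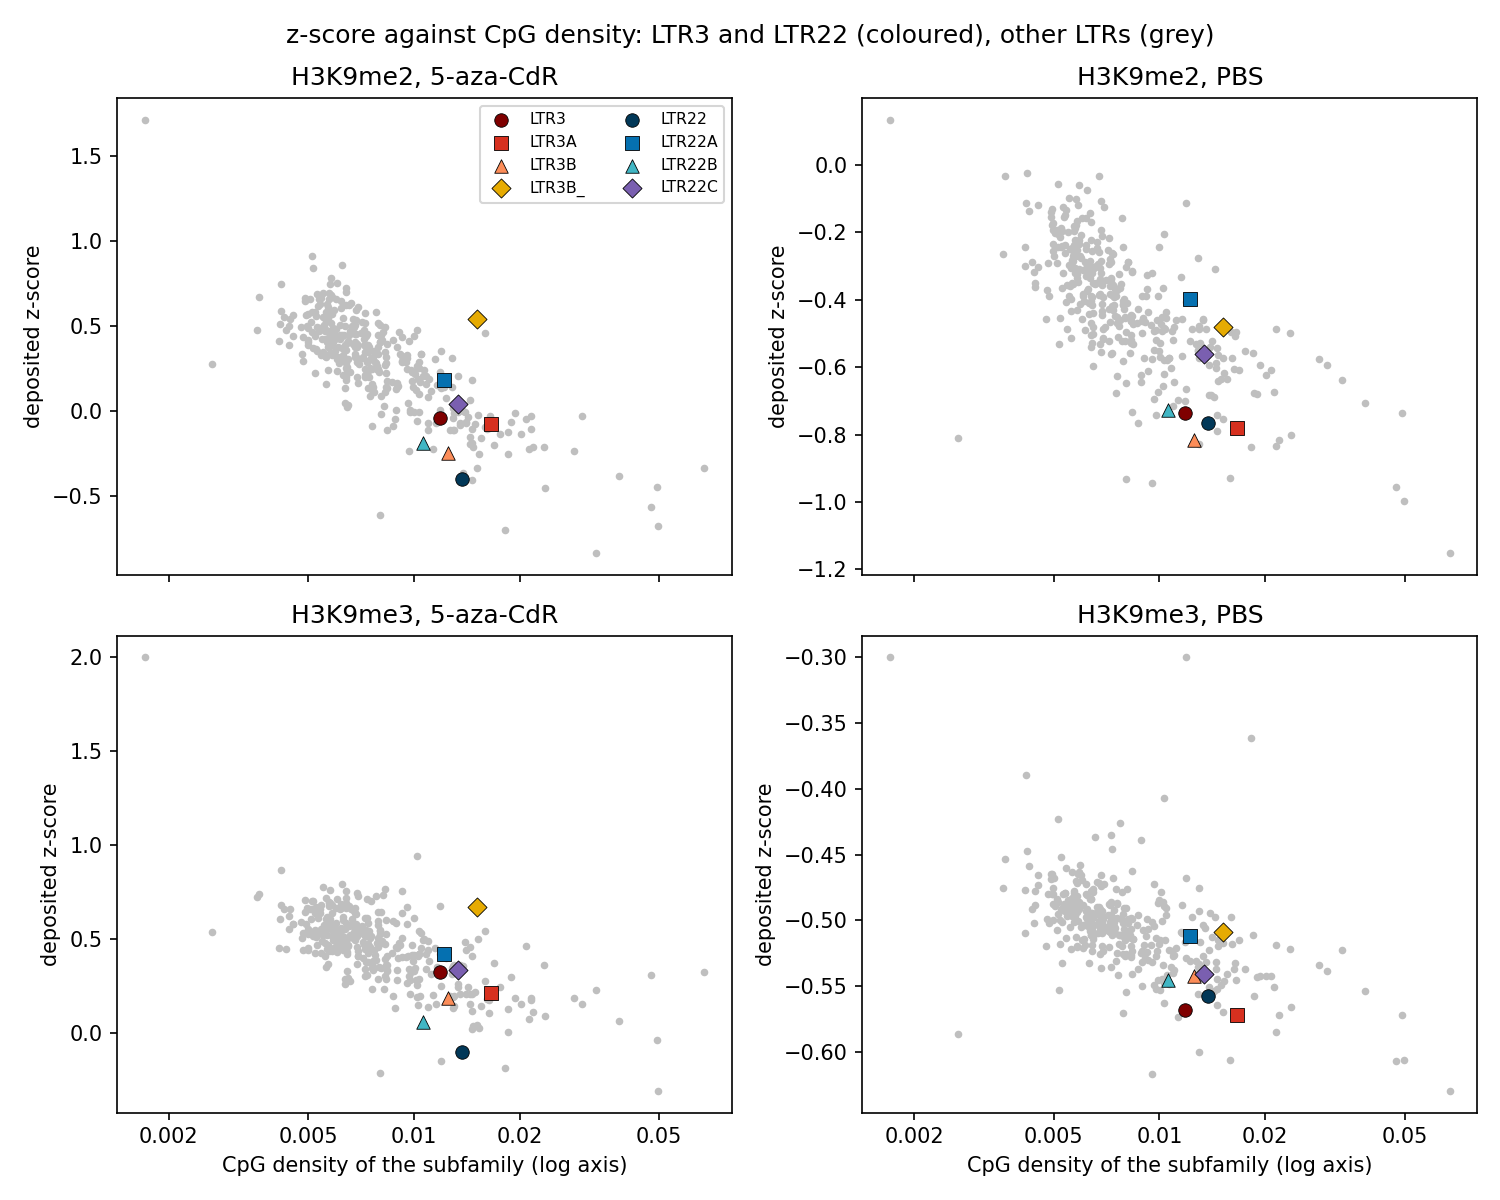
Deposited z-score (vertical axis, scaled separately in each panel) against CpG density of the subfamily (horizontal log axis) in the 4 libraries, with the 8 subfamilies coloured and the others in grey. LTR3B_ lies above most LTRs of like CpG density in both 5-aza-CdR panels, where its residuals are 3.31 and 3.23 robust SDs, and LTR22 lies near the lower edge.

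The marks were compared at the same repeats as H3K9me3 minus H3K9me2. In 5-aza-CdR this value was 0.434 at LTR3B, 0.360 at LTR3, 0.290 at LTR3A and 0.132 at LTR3B_, and between 0.236 and 0.297 at the 4 LTR22 subfamilies, against a median of 0.144 over all subfamilies. In PBS it was 0.275 at LTR3B, 0.210 at LTR3A, 0.167 at LTR3 and -0.0289 at LTR3B_. The LTR22 family in PBS had 0.208 at LTR22, 0.182 at LTR22B, 0.0203 at LTR22C and -0.116 at LTR22A, against a median of -0.0900 over all subfamilies. In each treatment 7 of 8 members were above the median of all subfamilies, the exceptions being LTR3B_ in 5-aza-CdR and LTR22A in PBS. Since the H3K9me3 values in PBS varied little (SD 0.0354 over all subfamilies, against 0.187 for H3K9me2), the PBS contrast mostly carries the H3K9me2 values. With SD 1 in each library, 6 of 8 members were above the median in 5-aza-CdR and 5 of 8 in PBS. On that scale LTR22 (-0.37) and LTR22B (-0.32) were below the 5-aza-CdR median of -0.10, and LTR3B_ (0.15) was above it. In PBS, LTR22C was below the median and LTR3 at it. The direction for these members thus depended on the scale.

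Other HERV-K type LTRs gave a setting for both families. The list held 19 subfamilies: LTR5 (HML-2), MER9 (HML-3), LTR13 (HML-4), MER11 (HML-8) and LTR14 (HML-1 and related). Its median H3K9me2 z-score was -0.0683 in 5-aza-CdR and -0.573 in PBS, and its median H3K9me3 z-score 0.216 in 5-aza-CdR and -0.531 in PBS. Its median treatment difference was 0.523 for H3K9me2 (0.350 at LTR13_ to 0.728 at LTR13A) and 0.771 for H3K9me3 (0.146 at LTR5 to 1.01 at MER9a1). The deposited H3K9me3 value of LTR5 in PBS is a round number (-0.3), unlike those of the members. On the deposited scale, 0 of 19 in this list were above and 2 of 19 below the H3K9me2 limit, against 2.95% and 8.04% of all subfamilies. For H3K9me3, 0 of 19 were above and 5 of 19, among them LTR5, below the limit, against 1.88% and 7.24%. The list was not counted on the other scales. Among the 27 HERV-K type LTRs, members included, LTR3B_ was the highest in 5-aza-CdR and in the treatment difference for both marks, and LTR22 was at place 26 from the highest in each of these 4 measures. For the H3K9me2 difference, LTR3A and LTR3 held the places 3 and 4.

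**Figure D5:**
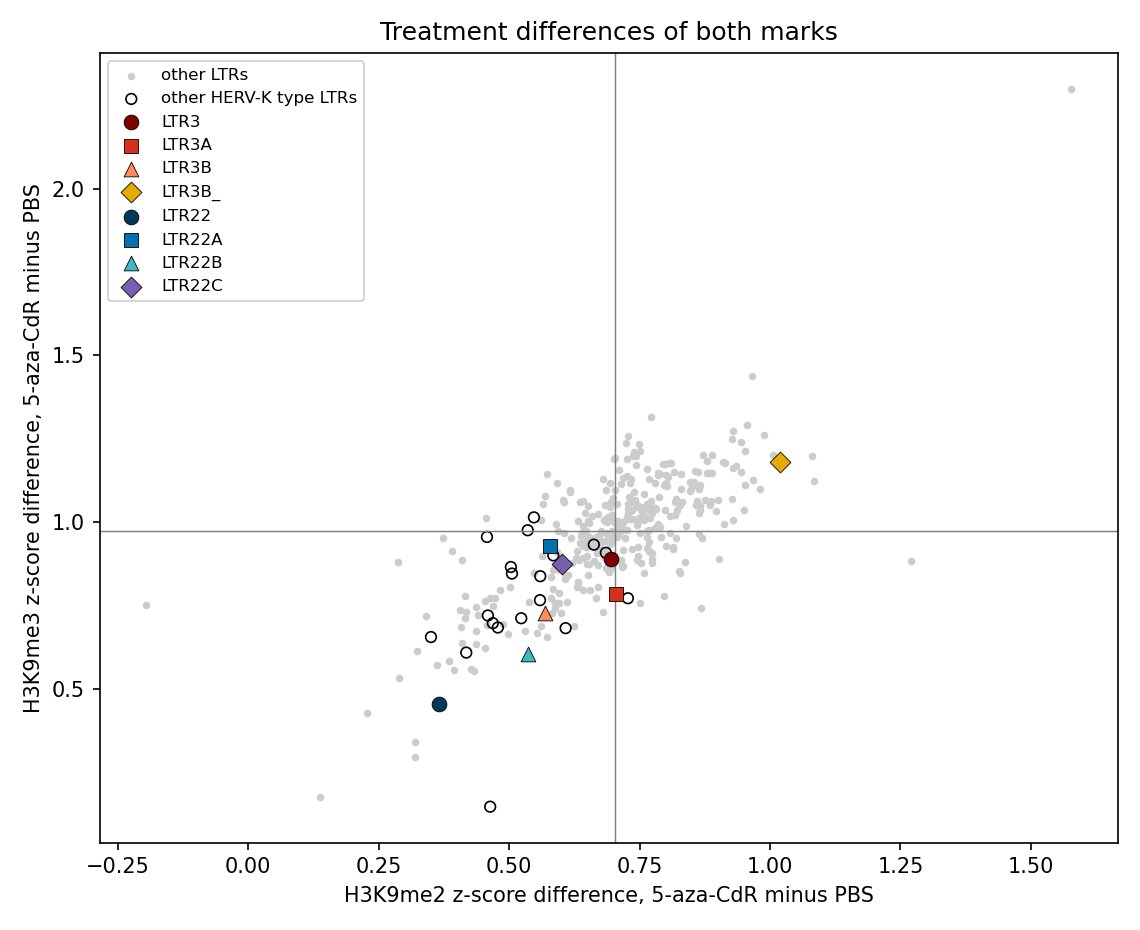
Treatment difference of H3K9me3 (vertical axis) against that of H3K9me2 (horizontal axis), both as z-score in 5-aza-CdR minus PBS, for the 8 subfamilies (coloured), the 19 other HERV-K type LTRs (open circles) and the remaining LTRs (grey), with lines at the medians of all subfamilies. LTR3B_ is in the upper right and LTR22 in the lower left, with the other 6 members between them.

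Likeness of profile was measured as the Euclidean distance over the 4 libraries, each set to SD 1, from the median profile of each family. For LTR3 the nearest subfamilies outside both families were LTR66 (distance 0.404), LTR46 (0.408) and MER52C (0.503). For LTR22 they were LTR5A (0.204), HERV1_LTRc (0.285) and LTR5_Hs (0.290). LTR3B_ lay 3.48 from the median of its own family, farther than the median non-member at 3.05, while LTR3, LTR3A and LTR3B lay 0.475, 0.551 and 0.907 from it. In the LTR22 family the distances were 2.12 for LTR22A, 1.99 for LTR22 and 0.900 for both LTR22B and LTR22C, against 2.70 for the median non-member. LTR22B and LTR22C were the middle members in all 4 libraries, so the median lay midway between them and their equal distance was fixed. Members also enter the median from which they are measured, and non-members do not.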

How the data were processed

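Cells, treatments and libraries are as described above. Bowtie2 and the hg19 build are listed in the submitters' processing notes. The authors deposited 1 table of LTR subfamilies with a z-score (a standardised score) for each of the 4 libraries, per the file headers, and a CpG density, which is a ratio. The sources used here do not give what the z-score was centred and scaled on, whether an input was used, or how reads that map to several copies were treated. No counts came with the values, so no depth or interval could be given.

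Differences (5-aza-CdR minus PBS), family medians, percentiles, robust SDs and residuals from a least-squares line on the rank of CpG density were computed with Python 3.11.15, pandas 2.3.3 and numpy 2.4.6, and checked on simulated data. With 1 library per group no test was run. The members, the lists and the alternatives (SD 1 in each library, ranks, a filter near 0, other limits, means, a member left out, 2 subfamilies with round values left out) were chosen with earlier results of these data known. The text names all 8 members, the 3 nearest profiles per family and the ends of the list of other HERV-K type LTRs. Any other contrast was chosen after its values were seen.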

Additional observations from a re-analysis of the deposited data

How the results depend on the processing

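No result has a replicate check, so the alternatives show only how far the values depend on scale, limit and choice of members. Of 44 alternative values for the family medians, 37 stayed on the same side of the limit and within the spread of the members. For 4 of these, with a limit of 3 robust SDs, the outcome was fixed, since the value is unchanged and lay within 2. Of the 44, 9 changed sign. With SD 1 in each library the LTR3 median moved to 1.72 robust SDs above that of all subfamilies for H3K9me2 (-0.02 as deposited) and to 1.33 for H3K9me3 (-0.95 as deposited). On percentile ranks it moved to 0.77 for H3K9me3, and the LTR22 median to 0.045 for H3K9me2 (-1.16 as deposited). Members near the lowest place in PBS had little room to fall on ranks. The LTR22 median for H3K9me3, -1.64 as deposited, passed the lower limit without the 20% of subfamilies nearest 0 (-2.21) and without LTR22A or LTR22C (-2.59 each), but was smaller without LTR22 or LTR22B (-0.69 each), with SD 1 (-0.63) and on ranks (-0.10). The gap between the families moved by less than the spread of the members in 74 of 74 alternatives. That spread was wider than each of the gaps, so a gap could change sign and still be counted. The sign changed in 11 alternatives, none of which concerned the H3K9me2 difference or H3K9me2 in PBS. These were H3K9me2 in 5-aza-CdR (ranks, or without LTR3, LTR3B_, LTR22 or LTR22B), H3K9me3 in 5-aza-CdR and its treatment difference (without LTR22 or LTR22B) and H3K9me3 in PBS (without LTR3 or LTR3A). For single members, with a limit of 3 robust SDs only the H3K9me3 difference of LTR22 was beyond it, and with 2 ordinary SDs from the mean LTR3B_ and LTR22 just missed it for H3K9me2 (1.99 and -1.98), as did LTR22B for H3K9me3 (-1.86). On ranks LTR3B_ was beyond the H3K9me3 limit (2.44), and with the filter near 0 LTR3B was below it (-2.30). With the line on CpG density itself in place of its rank, 6 of 60 residuals passed 2 robust SDs that had not. Among them was that of the LTR22 H3K9me2 difference (-2.43). Some residuals changed sign, among them that of the LTR3 family median for the H3K9me3 difference (0.26 on the rank and -0.39 on the density). The cause of these shifts was not tested. No paired analysis was possible because each group held 1 library.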

Other observations

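The LTR22 family formed 2 pairs in how much more the z-score differed between treatments for H3K9me3 than for H3K9me2, a contrast chosen after its values were seen. The H3K9me3 difference exceeded the H3K9me2 difference by 0.352 at LTR22A and 0.274 at LTR22C, and by 0.0890 at LTR22 and 0.0662 at LTR22B. These values lie at percentiles 81.2, 54.0, 6.72 and 4.30 of all subfamilies. On the deposited scale the LTR3 family was narrower, with 0.193 at LTR3, 0.160 at both LTR3B_ and LTR3B, and 0.0806 at LTR3A. Its percentiles were 25.8 at LTR3, 17.7 at LTR3B_, 17.5 at LTR3B and 5.11 at LTR3A. LTR3A thus lay between LTR22B and LTR22, so low values were not particular to the LTR22 family. The contrast was not computed on the other scales.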
